A study of Homo sapiens with 24 samples.

Results

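A module of 44 genes of plasma proteins and hepatic endoderm was followed through KDM2A knockdown cultures made from H9 cells, a widely used line of human embryonic stem cells. The genes are typical of liver and of visceral yolk sac, and they were chosen by name with their levels in the day 30 cerebral organoids of these data already known. All 44 are among the 61544 genes of the organoid table, and 43 of them passed the filter on low counts with 19704 genes in all. The exception was GC, the vitamin D binding protein. The gene table for neural progenitor cells (NPCs) lists 14 of the 44 among 10221 genes, and 10 of those 14 passed its filter, with 9860 genes in all. The other 30 members were not analysed here in NPCs.

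Every group carried a lentiviral short hairpin RNA, introduced into the stem cells at a multiplicity of infection of 20 and followed by puromycin at 1 µg/ml. The hairpin was scrambled in NC and directed against KDM2A, a histone H3 lysine 36 demethylase, in sh1 and sh4. Transduced cells were then turned into NPCs (5 libraries per group) or into organoids collected at day 30 (3 libraries per group). Nothing in the sample descriptions tells whether a group's libraries stem from different cultures, so any p-value measures only the spread between these libraries, which may be technical. The 9 organoid libraries held from 15899243 to 18853737 counts. KDM2A fell in the NPCs, from 186 ± 15.3 CPM (counts-per-million, SD, n = 5) in NC to 92.0 ± 4.15 with sh1 and 95.1 ± 4.21 with sh4, with adjusted p = 5.12e-12 and 7.36e-12 in edgeR. Its log2 fold changes were -1.02 and -0.97, the latter just under the size of 1 that a call needs below. The sh1 value missed that size without NC library 1 (-0.99) or 3 (-0.98), and the sh4 value reached it without NC library 5 (-1.01). Small p-values are the rule in the NPC table, where 99.3% and 88% of tested genes had an adjusted p under 0.05. In the organoids KDM2A was at 100 ± 3.99 CPM in NC (SD, n = 3), 110 ± 6.96 in sh1 and 101 ± 4.88 in sh4, with adjusted p = 0.127 and 0.926 in edgeR. The target gene therefore does not check the organoid labels, and the organoid groups are given here as libraries labelled NC, sh1 or sh4.

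Hepatocytes secrete most of the abundant proteins of blood plasma, among them albumin, apolipoproteins, fibrinogen, protease inhibitors and carriers of iron, heme and retinol. In the embryo the visceral endoderm of the yolk sac makes much the same set before the liver does, with alpha-fetoprotein (AFP) in place of albumin (ALB) as the main product. Factors of the HNF1, HNF4 and FOXA families bind near many of these genes in both tissues, and neural tissue normally expresses few members, such as the lipid carrier APOE.

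RefSeq promoter windows, from 250 bases before a start site to 50 bases after it, were found for 36 of the 44 members, in 48 windows. No window was used for GC, APOA1, APOB, APOC3, SERPINC1, A2M, ITIH2 and VIL1. The bases before the start site are printed 5′ to 3′ for the 4 members that hold the most kinds of the motifs below, with ties broken by level. All 4 were higher in every sh1 and sh4 organoid library than in every NC library, which played no part in the choice of windows. Of the 43 tested members, 38 were so in sh1 and 43 in sh4. Capitals mark matches to the HNF1 half-site (GTTAAT), to the FOXA core (TGTTTNC) and to the TATA box (TATAAA), on either strand (N stands for any base).
FABP1: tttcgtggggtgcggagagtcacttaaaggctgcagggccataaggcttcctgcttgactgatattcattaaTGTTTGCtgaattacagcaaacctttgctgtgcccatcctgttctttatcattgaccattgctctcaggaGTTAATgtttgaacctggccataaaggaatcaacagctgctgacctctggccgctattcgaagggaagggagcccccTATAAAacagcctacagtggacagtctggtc
AFP: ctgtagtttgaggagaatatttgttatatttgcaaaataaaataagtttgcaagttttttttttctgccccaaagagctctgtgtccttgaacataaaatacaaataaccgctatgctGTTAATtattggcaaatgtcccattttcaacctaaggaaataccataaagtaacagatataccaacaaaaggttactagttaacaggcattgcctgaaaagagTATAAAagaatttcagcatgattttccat
ALB: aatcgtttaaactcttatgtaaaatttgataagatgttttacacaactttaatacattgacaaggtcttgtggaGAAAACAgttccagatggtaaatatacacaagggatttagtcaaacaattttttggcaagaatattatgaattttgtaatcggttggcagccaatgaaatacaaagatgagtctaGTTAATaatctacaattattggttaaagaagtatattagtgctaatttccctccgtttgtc
FGA: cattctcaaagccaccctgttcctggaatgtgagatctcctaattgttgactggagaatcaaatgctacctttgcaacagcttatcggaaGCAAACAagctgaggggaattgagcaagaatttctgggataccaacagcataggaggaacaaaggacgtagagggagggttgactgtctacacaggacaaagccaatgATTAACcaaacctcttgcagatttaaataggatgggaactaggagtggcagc

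The sequences follow RefSeq on GRCh38.p14. They lie at chr2:88128063-88128312 for FABP1 (minus strand), chr4:73435971-73436220 for AFP and chr4:73404037-73404286 for ALB (both plus strand), and chr4:154590743-154590992 for FGA (minus strand). GENCODE v29 draws longer gene models, so that the ALB and AFP windows lie within their gene spans and the FABP1 and FGA windows overlap them in part. The half-site began 61 bases before the start site in ALB, 132 in AFP, 108 in FABP1 and 52 in FGA. The FOXA match began at 176 bases in ALB, 178 in FABP1 and 160 in FGA. The TATA match began at 29 bases in AFP and 31 in FABP1. None of these matches overlaps another. Over all windows, the half-site occurred in 12 of the 48 member windows (25%) and in 6.88% of 35116 windows of all genes. The FOXA core occurred in 15 member windows (31.2%) against 18% of all windows, and the TATA box in 12 (25%) against 11.5%. The HNF4 core (CAAAGTC), also searched on both strands, occurred in 4 member windows (8.33%) against 3.37%. These matches describe letters only, and several windows belong to the same gene.

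In the organoids, 36 of the 43 tested members were called higher in libraries labelled sh1 than in those labelled NC, and none was called lower. A call means an adjusted p under 0.05 and a log2 fold change of at least 1 in edgeR. Of all genes tested 12.1% were called higher and 7.92% lower. In libraries labelled sh4, 42 of 43 were called higher and none lower, against 20.0% and 15.5% of all genes. Members were also called higher in sh4 than in sh1 in 38 of 43 cases, against 11.2% of all genes. The members were chosen on these libraries, so the counts describe the choice and no test is given for a member in the organoids. The median fitted log2 fold change of the 43 was 5.32 in sh1 and 7.34 in sh4, beside 0.02 and -0.01 over all genes tested. Both contrasts share the NC libraries.

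Every sh4 library lay above every NC library for all 43 tested members (36.6% of all genes tested). Every sh1 library lay above every NC library for 38 (32.3%), and every sh4 library above every sh1 library for 39 (29.1%). The members not called in sh1 were APOC1, APOE, MTTP, ITIH3, ITIH4, HNF4A and FOXA3, and ITIH4 alone was not called in sh4. In bulk RNA, more cells of a type and more RNA per cell cannot be told apart.

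**Figure D1:**
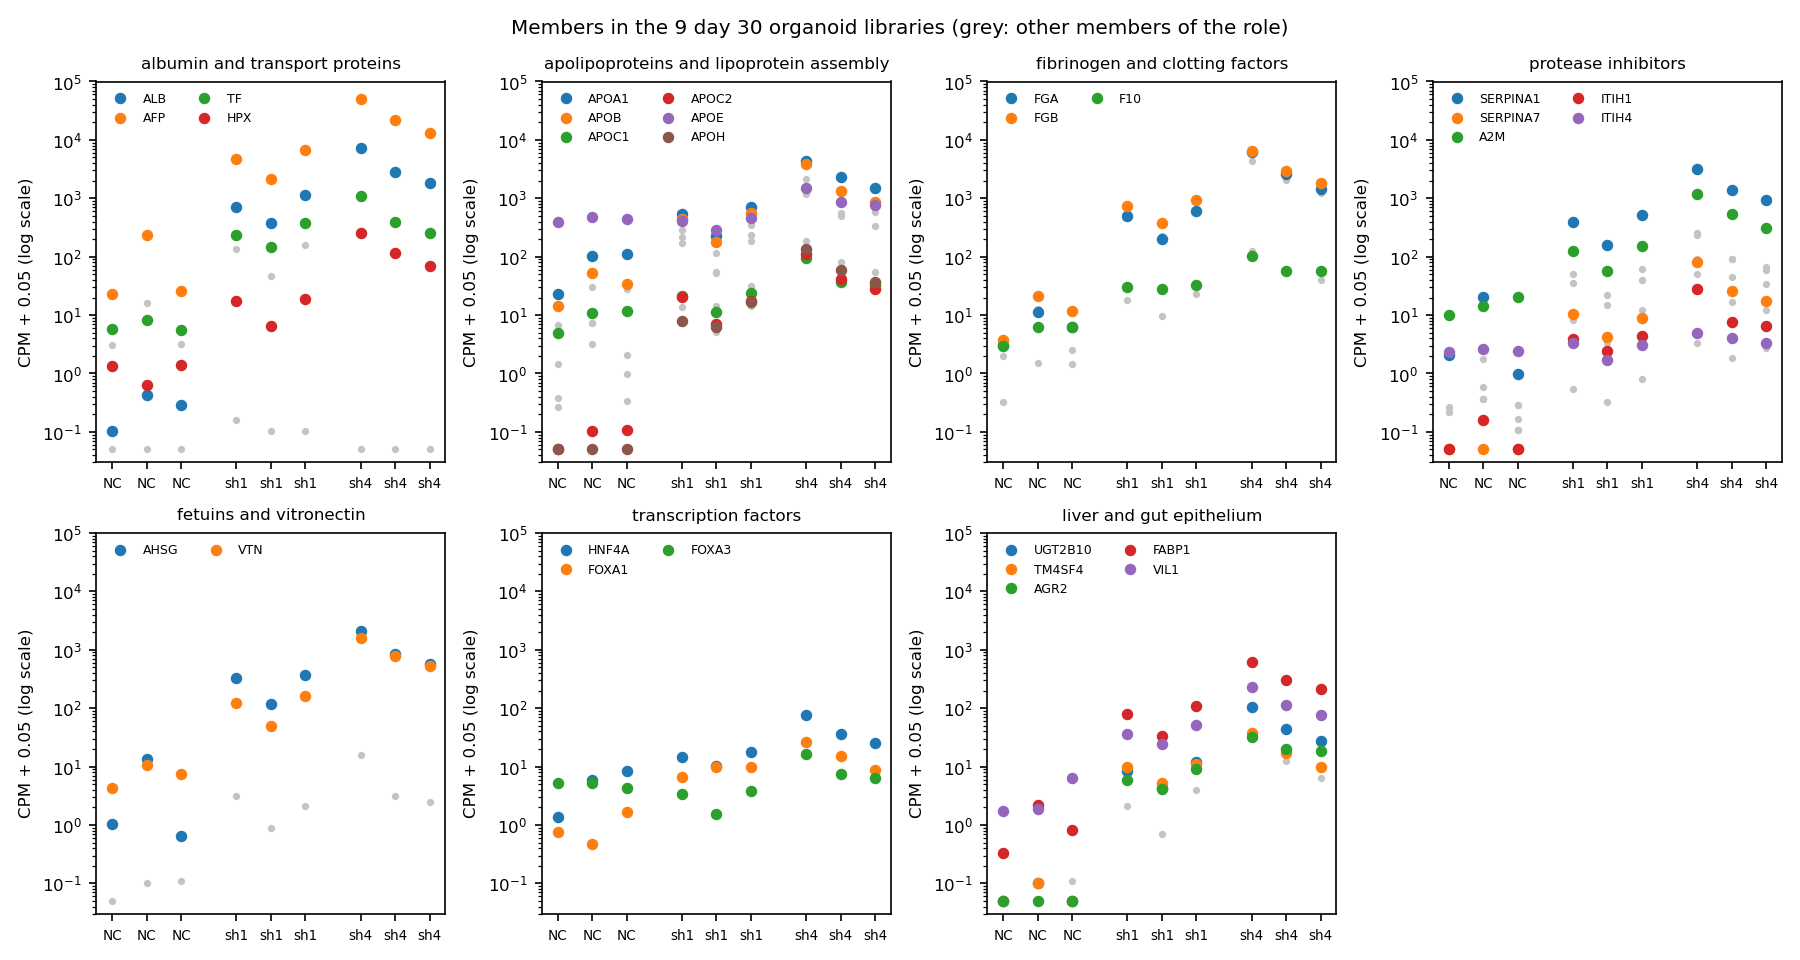
Level of each member in the 9 organoid libraries, by role, as CPM plus 0.05 on a log axis; libraries 1 to 3 of each group run left to right, coloured points are the members given in every library and grey points the others. The libraries labelled NC lie lowest in most panels and those labelled sh4 highest, while APOE and ITIH4 overlap between NC and sh1 and FOXA3 is lowest in sh1.

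AFP, the fetal serum carrier, was at 23.3, 239 and 26.1 CPM in the 3 NC libraries, at 4750, 2175 and 6764 in sh1, and at 49815, 22001 and 13362 in sh4. NC library 2 stood far above the other NC libraries, and the groups did not overlap. The fitted log2 fold change was 5.57 ± 1.04 (SE) in sh1 and 8.21 ± 1.17 in sh4. Without NC library 2 these became 7.53 and 10.16, and without sh4 library 1 the sh4 value became 7.52. ALB, the main carrier of adult plasma, had 1, 7 and 4 counts in NC. It was at 706, 383 and 1123 CPM in sh1 and at 7341, 2788 and 1849 in sh4. Nearly no ALB was therefore counted in the NC libraries, even in library 2, where AFP was high. The log2 fold change of ALB, 11.65 ± 0.91 in sh1 and 14.09 ± 0.95 in sh4, was the highest of all 19704 genes tested in both contrasts. Without sh4 library 1 the sh4 value of ALB was 13.31, and without NC library 2 the values were 12.27 and 14.70. ALB and AFP are neighbours on chromosome 4 (73397114 to 73421412 and 73431138 to 73456174 in GENCODE v29 on GRCh38, both on the plus strand).

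All 5 tested carriers were called higher in both contrasts. Transferrin (TF), which carries iron, was at 5.68, 8.04 and 5.45 CPM in NC, 233, 149 and 384 in sh1, and 1081, 394 and 258 in sh4. Libraries labelled sh1 and sh4 overlapped for TF, since sh4 library 3 lay below sh1 library 3. Its log2 fold changes were 5.32 ± 0.62 and 6.49 ± 0.64, the latter 5.67 without sh4 library 1. Hemopexin (HPX), which binds heme, was at 1.32, 0.586 and 1.35 CPM in NC, 17.1, 6.58 and 18.6 in sh1, and 250, 116 and 69.9 in sh4. HPX had the largest gap between the hairpin labels of all tested members, with a log2 fold change of -3.36 ± 0.50 for sh1 against sh4. RBP4, the retinol carrier, was at a mean of 7.3 CPM in NC, 114 in sh1 and 532 in sh4, and its NC library 2 stood above the others at 15.8 CPM. GC had 2, 1 and 1 counts in the sh1 libraries and 0 in the other 6, so the vitamin D carrier was at most at the edge of detection at this depth.

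Apolipoproteins package lipid for transport, APOB as the structural protein of the large particles and APOA1 as that of high density lipoprotein. Of the 11 members in this class, 8 were called higher in sh1 and 11 in sh4. APOA1 was at 23.1, 102 and 110 CPM in NC, 532, 225 and 698 in sh1, and 4397, 2333 and 1527 in sh4. APOB was at 14.1, 51.5 and 34.3 CPM in NC, 434, 176 and 553 in sh1, and 3936, 1351 and 851 in sh4. For both genes NC library 1 was the lowest of all 9, and the groups did not overlap. The log2 fold changes were 2.63 ± 0.63 and 5.13 ± 0.70 for APOA1 and 3.54 ± 0.69 and 5.94 ± 0.77 for APOB, in sh1 and sh4. For APOB the sh4 value fell to 5.05 without sh4 library 1.

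APOE and APOC1 departed from that pattern. APOE, a lipid carrier also made by neural cells, was at 386, 476 and 441 CPM in NC, 411, 281 and 467 in sh1, and 1510, 879 and 779 in sh4. NC and sh1 overlapped, and all sh4 libraries lay above both. APOC1 was at 4.80, 11 and 11.9 CPM in NC, 21.1, 11.1 and 23.7 in sh1, and 95.3, 37.2 and 32.9 in sh4, so that sh1 library 2 fell inside the NC range. Without sh4 library 1 its sh4 log2 fold change moved from 2.58 to 1.93.

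APOC2, the cofactor of lipoprotein lipase, had 2 counts over the 3 NC libraries, and was at 20.5, 6.97 and 17.3 CPM in sh1 and 112, 40.7 and 28.4 in sh4. From counts pooled over each group and library totals before scaling, the ratio to NC was 391 in sh1 (95% counting interval 108 to 3232) and 1312 in sh4 (363 to 10842). All ratios to NC and floors given below are on this scale. Intervals given with them cover counting error only and leave out the spread between libraries. These ratios differ from ratios of the CPM shown, which for the means of APOC2 are 400 and 1619. Beside it on chromosome 19 the read-through gene APOC4-APOC2 shares sequence with it, so the division of counts between them is uncertain. APOE, APOC1 and APOC2 all lie within 44905754 to 44949565 of chromosome 19, and they span sh4 log2 fold changes from 1.28 to 10.41. APOH, a phospholipid-binding plasma protein, had 0 counts in each NC library and was at 7.78, 6.14 and 16.4 CPM in sh1 and 138, 60.2 and 37.1 in sh4. Against a floor of 3 counts over the NC group it was at least 176-fold higher in sh1 and at least 1140-fold higher in sh4. Without sh4 library 1 the sh4 figures were at least 755-fold for APOH and a ratio of 804 for APOC2. APOA4, APOC3 and APOA1 lie within 17.3 kb of chromosome 11 (116820700 to 116837950), and their NC levels differed. APOC3, which slows lipoprotein clearance, was at 0.331, 7.3 and 0.293 CPM in NC, with library 2 far above the others, unlike APOA1. Its log2 fold changes of 5.67 and 8.02 became 8.75 and 11.09 without that library. APOA4, a protein of intestinal lipoproteins, was at 0.221, 7.4 and 0.937 CPM in NC and had log2 fold changes of 5.86 and 8.05, or 8.19 and 10.39 without library 2. APOA2 and APOM were also called in both contrasts. MTTP, which loads lipid onto APOB, was called in sh4 alone, with mean levels of 9.13 CPM in NC, 22.3 in sh1 and 107 in sh4.

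All 5 members of the clotting class were called in both contrasts. The 3 chains of fibrinogen, the clot-forming protein, are encoded side by side on chromosome 4 (154562956 to 154612967, FGB on the plus strand, FGA and FGG on the minus strand). FGB was at 3.75, 21.4 and 11.8 CPM in NC, 746, 377 and 942 in sh1, and 6478, 2989 and 1823 in sh4. FGA was at 3.03, 11.3 and 6.09 CPM in NC, 506, 201 and 599 in sh1, and 6095, 2621 and 1439 in sh4. Neither gene had overlapping groups, and sh4 library 1 was the highest for both. The log2 fold change of FGB was 5.80 ± 0.72 in sh1 and 8.25 ± 0.80 in sh4. That of FGA was 5.99 ± 0.73 and 8.95 ± 0.82. Without NC library 2 FGB was at 6.48 and 8.92 and FGA at 6.58 in sh1, and without sh4 library 1 FGB was at 7.61 and FGA at 8.21 in sh4. Coagulation factor X (F10), which activates prothrombin, was at 2.87, 6.13 and 6.21 CPM in NC, 30.0, 27.8 and 32.7 in sh1, and 102, 57.5 and 56.5 in sh4. The 3 sh1 libraries of F10 lay closest together in this class, and its log2 fold changes of 2.57 ± 0.31 and 3.83 ± 0.31 were the smallest. Prothrombin (F2) was at a mean of 1.06, 16.8 and 75.5 CPM in NC, sh1 and sh4.

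Of the 10 protease inhibitors and related chains, 8 were called higher in sh1 and 9 in sh4. SERPINA1, which blocks neutrophil elastase, was at 1.99, 20.5 and 0.937 CPM in NC, 387, 159 and 516 in sh1, and 3197, 1374 and 928 in sh4. As with AFP, NC library 2 stood far above the other NC libraries. The sh1 log2 fold change of SERPINA1 was 5.49 ± 1.01 and became 7.90 without NC library 2, and the sh4 value went from 7.86 to 10.27. A2M, a broad-range protease trap, was at 9.99, 14.5 and 20.4 CPM in NC, 123, 57.9 and 150 in sh1, and 1164, 534 and 307 in sh4. The groups of A2M did not overlap, and its NC libraries lay close together. Its log2 fold changes were 2.88 ± 0.53 and 5.48 ± 0.59, the latter 4.82 without sh4 library 1. SERPINA7, the thyroxine carrier, had 0 counts in every NC library and was at 10.4, 4.17 and 8.92 CPM in sh1 and 80.4, 26 and 17.7 in sh4. It was at least 137-fold higher in sh1 and at least 598-fold higher in sh4 than the floor of 3 counts over NC, or at least 338-fold in sh4 without sh4 library 1.

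Inter-alpha-trypsin inhibitor heavy chains such as ITIH1 bind hyaluronan. ITIH1, ITIH3 and ITIH4 are adjacent on chromosome 3 (52777592 to 52831479), and they did not keep together. ITIH1 had 0, 2 and 0 counts in NC, and was at 3.83, 2.36 and 4.27 CPM in sh1 and 28.3, 7.7 and 6.53 in sh4, a ratio to NC of 91.3 (95% counting interval 24.9 to 760) and 307 (84.6 to 2537). ITIH4 was at 2.32, 2.61 and 2.34 CPM in NC, 3.29, 1.65 and 3.01 in sh1, and 4.93, 4 and 3.29 in sh4. NC and sh1 overlapped, and its log2 fold change of 0.75 ± 0.28 in sh4 was the smallest of the 43 members. ITIH4 overlaps a further annotated gene on its own strand, and its counts are uncertain for that reason. ITIH2, on another chromosome, had log2 fold changes of 7.78 ± 1.06 and 9.95 ± 1.00, or 9.72 and 11.89 without NC library 2. SERPINC1 (antithrombin), SERPIND1 (heparin cofactor II) and AMBP were called in both contrasts, with sh4 means of 26.2, 57.1 and 131 CPM.

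The 2 fetuins and vitronectin were called in both contrasts. AHSG, a fetuin that holds calcium phosphate in solution, was at 0.993, 13.6 and 0.586 CPM in NC, 324, 117 and 373 in sh1, and 2063, 854 and 562 in sh4. NC library 2 was again far above the other NC libraries. Without it the log2 fold changes of AHSG went from 5.72 to 8.40 in sh1 and from 7.82 to 10.49 in sh4. VTN, the adhesion protein vitronectin, was at 4.30, 10.5 and 7.5 CPM in NC, 122, 48.7 and 162 in sh1, and 1578, 798 and 537 in sh4. Its NC libraries were closer together and its log2 fold changes were 3.90 ± 0.57 and 7.03 ± 0.63. FETUB, next to AHSG on chromosome 3, stayed low, with means of 1.99 CPM in sh1 and 7.16 in sh4, and 2 counts over the NC group, a ratio of 52.1 (14.1 to 436) and 154 (42.2 to 1275).

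Of the 3 transcription factors in the module, 1 was called higher in sh1 and 3 in sh4. HNF4A, a nuclear receptor of hepatocytes and gut, was at 1.32, 5.81 and 8.26 CPM in NC, 14.7, 10.2 and 17.9 in sh1, and 77.7, 36.7 and 25.4 in sh4. Its groups did not overlap, but sh1 library 2 lay close to NC library 3, and the log2 fold change of 1.48 ± 0.57 in sh1 was not called. In sh4 it was 3.18 ± 0.57. FOXA1, a pioneer factor of endoderm, was at 0.717, 0.426 and 1.64 CPM in NC, 6.57, 9.60 and 9.96 in sh1, and 26.5, 15.2 and 8.74 in sh4. FOXA1 was the transcription factor called in both contrasts, at 3.24 ± 0.52 and 4.19 ± 0.52, and its sh1 and sh4 libraries overlapped. Without NC library 3, its highest NC library, these were 3.92 and 4.86.

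FOXA3, a related factor of liver and gut, was at 5.13, 5.17 and 4.33 CPM in NC, 3.40, 1.48 and 3.78 in sh1, and 16.7, 7.34 and 6.35 in sh4. It was the only one of the 43 tested members for which every sh1 library lay below every NC library (29.8% of all genes tested). The sh1 log2 fold change of -0.76 ± 0.42 was not called and the sh4 value of 1.05 ± 0.41 was.

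All 6 liver and gut epithelial genes were called in both contrasts. FABP1, the liver fatty acid binding protein, was at 0.276, 2.18 and 0.761 CPM in NC, 80.7, 34.0 and 110 in sh1, and 608, 303 and 213 in sh4. VIL1, an actin bundler of microvilli, was at 1.71, 1.86 and 6.44 CPM in NC, 36.6, 24.3 and 51.6 in sh1, and 229, 114 and 76.6 in sh4. The highest NC library was library 2 for FABP1 and library 3 for VIL1. Without that library the log2 fold changes went from 6.10 to 7.18 in sh1 and from 8.42 to 9.49 in sh4 for FABP1, and from 3.51 to 4.39 and from 5.40 to 6.28 for VIL1.

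UGT2B10, a glucuronosyltransferase, had 1 count over the NC libraries and was at 8.27, 4.22 and 12 CPM in sh1 and 106, 44.1 and 27.5 in sh4, a ratio to NC of 428 (76.3 to 16925) and 2578 (462 to 101845). TM4SF4, a tetraspan membrane protein, also had 1 count over NC, a ratio of 454 (81.2 to 17983) and 935 (168 to 36982), and was at 9.97, 5.1 and 10.9 CPM in sh1 and 37.5, 16.9 and 9.88 in sh4. AGR2, a disulfide isomerase of secretory epithelium, had 0 counts in each NC library and was at 5.81, 4.06 and 9.03 CPM in sh1 and 32.3, 19.9 and 18.4 in sh4. All 3 were thus at or near 0 in NC, and AGR2 was at least 110-fold higher in sh1 and 346-fold higher in sh4 at the floor. UGT2B7 had 2 counts over NC, a ratio of 57.4 (15.5 to 479) in sh1 and 346 (95.4 to 2860) in sh4. Without sh4 library 1 the sh4 ratio was 1665 for UGT2B10, 624 for TM4SF4 and 216 for UGT2B7, while AGR2 was at least 296-fold higher. UGT2B10 and UGT2B7 belong to a family of close copies, so the division of reads among them is uncertain. Fitted fold changes of genes at or near 0 in NC depend on the small count the fit adds.

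**Figure D2:**
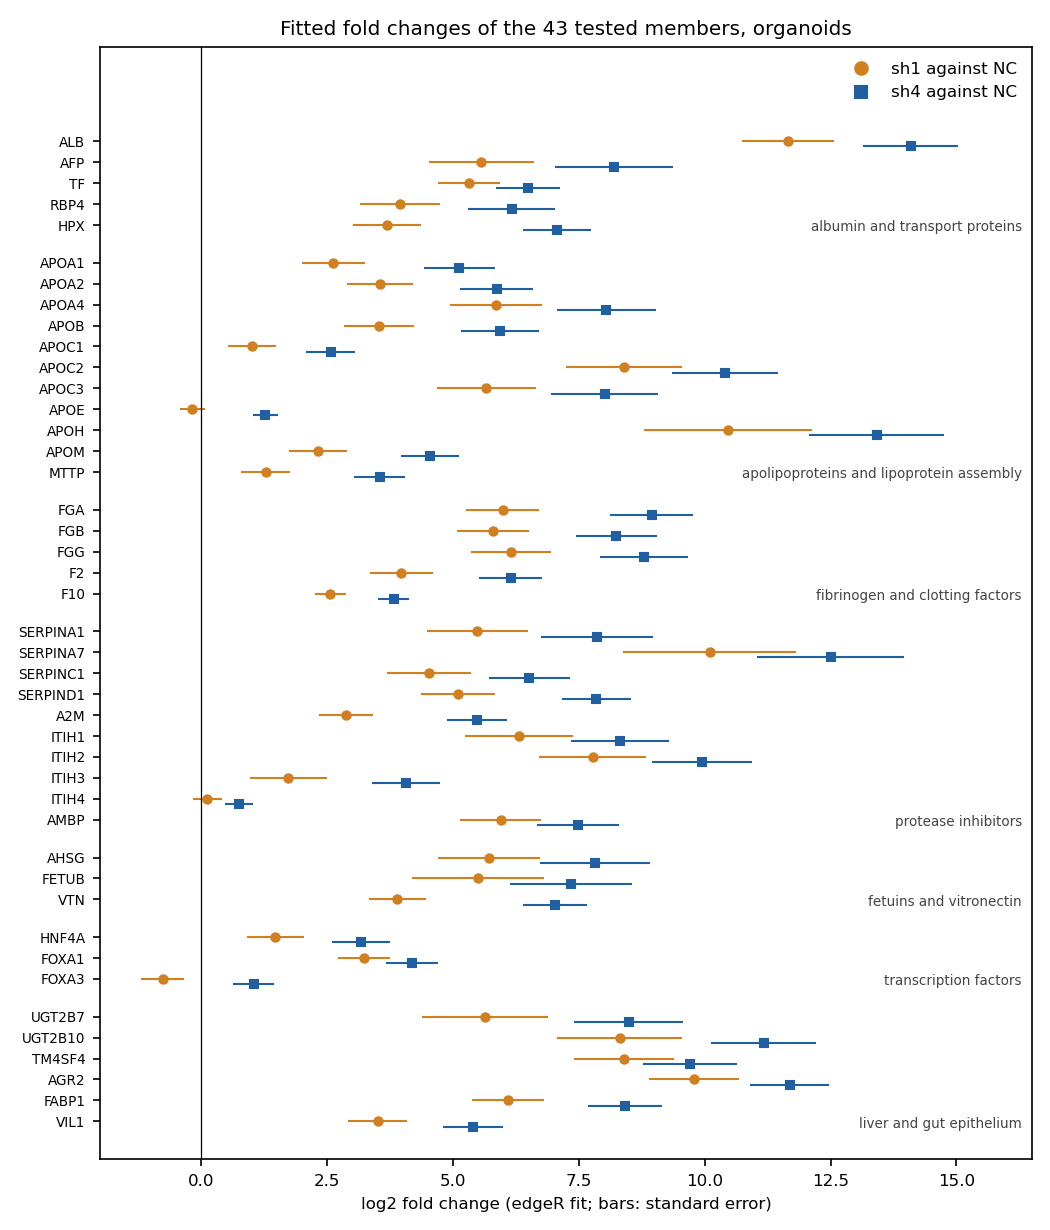
Fitted log2 fold change with its standard error for the 43 tested members in the organoids, circles for sh1 against NC and squares for sh4 against NC. The sh4 value is above the sh1 value for each member, and the sh1 values of APOE, ITIH4 and FOXA3 are closest to 0 or below it.

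The 44 members together took 0.0555, 0.118 and 0.0814% of the counts in NC libraries 1 to 3, 1.16, 0.530 and 1.53% in sh1, and 8.32, 4.15 and 2.61% in sh4. The lowest share, in NC library 1, has a 95% Clopper-Pearson interval of 0.0544 to 0.0566%, which covers counting error only. The group means were 0.085 ± 0.0314% (SD, n = 3), 1.07 ± 0.506% and 5.03 ± 2.95%. AFP alone reached 4.07% of all counts in sh4 library 1. Per kilobase of exon, the sh4 means ran from 8712 CPM per kb for AFP to 1933 for APOA1, 1390 for FGB, 1331 for APOA2 and 1182 for ALB, so AFP stood clear of the rest.

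**Figure D3:**
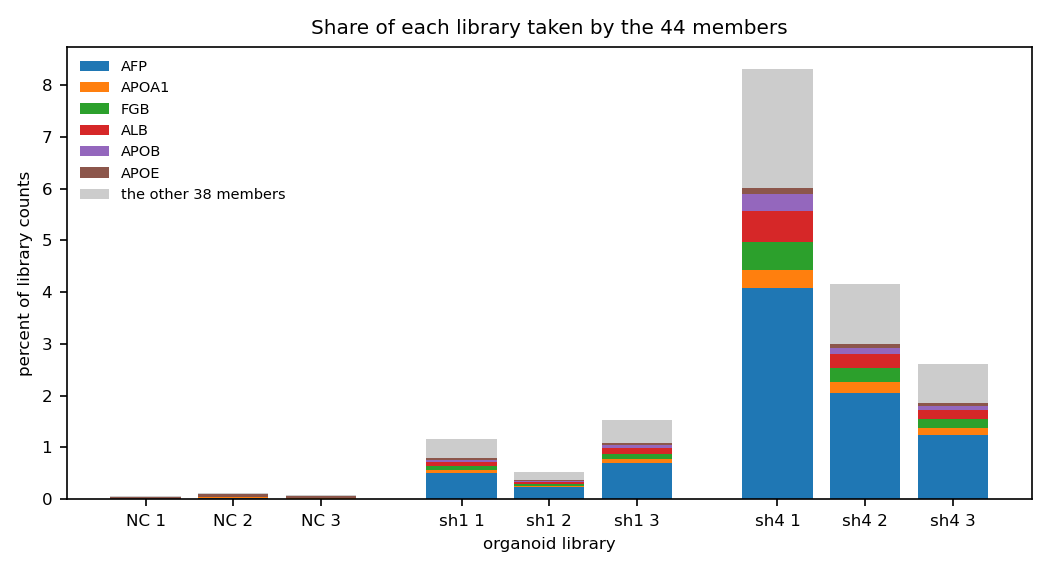
Percent of all counts taken by the 44 members in each organoid library, stacked by 6 named members and the others. The bars stay at or under 0.118% in the libraries labelled NC and reach 8.32% in sh4 library 1, with AFP the largest part in each sh1 and sh4 library.

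The make-up of this share also differed between the groups. APOE gave 74.7, 43.4 and 58.2% of the member counts in NC but 3.16 to 5.53% in sh1 and 1.49 to 2.76% in sh4. AFP gave 42.8 to 45.8% in sh1 and 47.3 to 49.3% in sh4. For each 100 AFP counts there were 0.237, 0.156 and 0.897 ALB counts in NC, 14.9, 17.6 and 16.6 in sh1, and 14.7, 12.7 and 13.8 in sh4. APOA1 went the other way, with 99.3, 42.9 and 421 counts per 100 of AFP in NC and 8.83 to 11.4 in all 6 other libraries. HNF4A had 5.69, 2.43 and 31.6 counts per 100 of AFP in NC, 0.265 to 0.469 in sh1 and 0.156 to 0.190 in sh4.

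FGB and FGG kept close ratios within each hairpin label. FGB over FGG was 166, 169 and 169% in sh1 and 147% in each of the 3 sh4 libraries, while AFP itself varied between 13362 and 49815 CPM across those. FGA over FGG varied more, at 112, 89.7 and 108% in sh1 and 138, 129 and 116% in sh4. In NC the ratio of FGB to FGG was 194, 170 and 467%, on counts of FGG of 35 to 236.

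**Figure D4:**
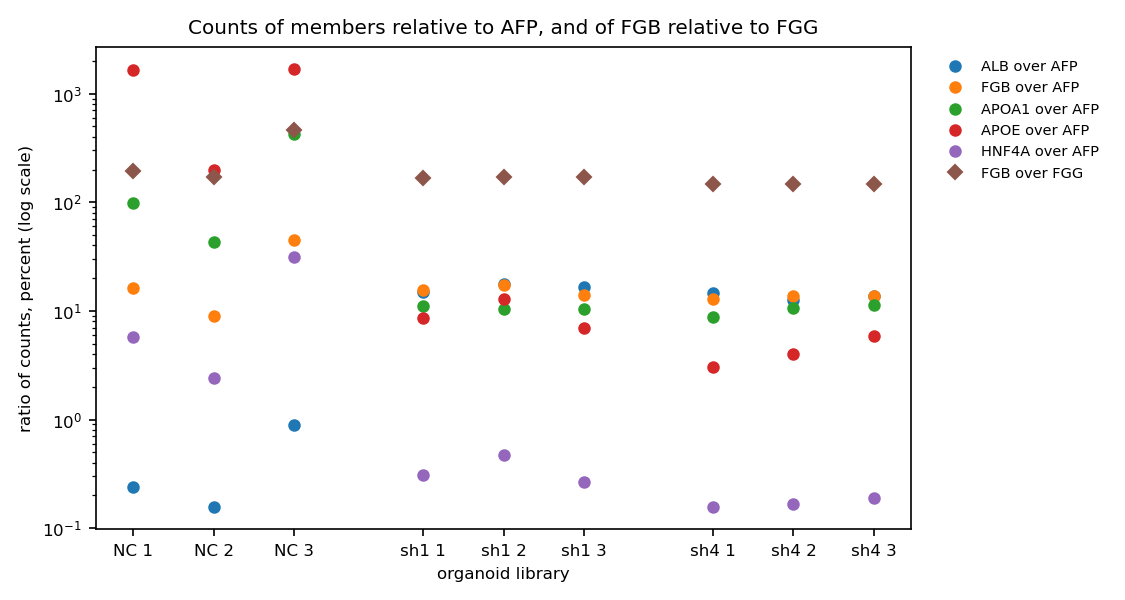
Counts of ALB, FGB, APOA1, APOE and HNF4A as a percent of AFP counts, and of FGB as a percent of FGG, in each organoid library on a log axis. ALB, FGB and APOA1 form nearly level rows across the 6 libraries labelled sh1 and sh4, APOE and HNF4A lie lower in sh4 than in sh1, and the NC libraries scatter, with ALB at 0.897% of AFP or less.

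Library 1 of sh4 was the highest of all 9 libraries for 43 of 43 members with at least 10 counts in some library, and library 3 of sh4 was the lowest of its group for 41. Between these 2 libraries the median member differed 3.55-fold, and ITIH3, ITIH4 and AGR2 differed least between them. Library 2 of sh1 was the lowest of its group for 42 of 43 members, and the median fold from it to library 3 was 2.63, with FOXA1 and F10 nearly level. In NC, library 2 was highest for 28 members and library 3 for 12. Over the 23 members with at least 10 counts in both NC libraries 1 and 2, the median fold was 2.44, but the log2 ratio of library 2 to library 1 ran from -1.18 for HPX to 3.77 for AHSG, so the NC libraries did not differ by 1 common factor. Leaving out NC library 2 moved the fold change (not its log2) of 18 members in sh1 and 17 in sh4 by more than 1.5-fold, and leaving out sh4 library 1 moved that of 28 members in sh4. The largest of these moves in sh1 was that of APOC3 without NC library 2. In sh4 without sh4 library 1 it was that of FETUB, from 7.34 to 5.96 on the log2 scale, or as a ratio to NC from 154 to 63.4. The ratio of ITIH1 in sh4 likewise became 165 without sh4 library 1, from 307.

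Neighbouring tissues were measured by marker lists. Mesenchyme markers (10 of 10 called higher in both contrasts) summed to 3133 to 4613 CPM in NC, 22175 to 25117 in sh1 and 41724 to 51243 in sh4. Choroid plexus markers, which include the plasma protein TTR, were called higher for 8 of 10 in sh1 and 9 of 10 in sh4. Without TTR they summed to 115 to 206 CPM in NC, 310 to 464 in sh1 and 1009 to 1269 in sh4. AQP1 gave most of the sums in sh1 and sh4, at means of 76.2, 268 and 954 CPM in NC, sh1 and sh4. OTX2 was called in neither contrast, at means of 56.3, 57.2 and 37.5 CPM. Neural progenitor markers were called lower for 6 of 9 in sh1 and 7 of 9 in sh4, where PROM1 was called higher, with sums of 3045 to 3510, 2671 to 2793 and 1281 to 1700 CPM. VIM gave most of these sums, at means of 2107, 2151 and 1250 CPM in NC, sh1 and sh4. It was called in neither contrast, so the sums mostly follow VIM and not the other markers. Neuron markers were called lower for 2 of 9 tested in sh1 and 8 of 9 in sh4, with sums of 3007 to 3265, 1205 to 1652 and 223 to 908 CPM. Astroglia and oligodendrocyte markers summed to 313 to 405, 410 to 564 and 168 to 364 CPM. Of the 9 tested, 1 was called higher and 1 lower in sh1, and 3 higher and 1 lower in sh4. Macrophage and blood markers summed to 6.62 to 25.8, 11.7 to 34.1 and 99.3 to 201 CPM, and the hemoglobin gene HBG1 was at 0 in all 9 libraries. Of the 10 tested, 7 were called higher and 1 lower in sh1, and 8 higher and 1 lower in sh4. Muscle markers summed to 39.6 to 42.1, 90.5 to 98.7 and 170 to 194 CPM, with 2 of 5 tested called higher and 1 lower in each contrast. Epithelium markers were called lower for 3 of 11 in sh1 and higher for 8 of 11 in sh4, with sums of 957 to 1095, 567 to 781 and 2240 to 3004 CPM. Endothelium markers were called higher for 3 of 7 in sh1, and higher for 5 of 7 and lower for 1 in sh4, with sums of 138 to 177, 159 to 233 and 461 to 650 CPM. Neural markers were thus present in all 9 libraries, with the neuron sums lowest in sh4. The part of each of these tissues in the member levels was not tested.

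Other genes of the same tissues were drawn from lists written with these data known, and their calls come from edgeR over all genes. Unless said otherwise, the genes named were picked from them by smallest adjusted p, so their p-values restate that choice and add no support. ORM1, CP, TDO2 and HNF4G were low in NC and passed the filter only with the sh1 and sh4 libraries, where they are high. Of 46 other plasma protein genes 35 were tested, and 26 rose and 1 fell in sh1, while 30 rose and 1 fell in sh4. ORM1, an acute phase lipocalin, had means of 0.784 ± 0.632 CPM in NC, 50 ± 26.3 in sh1 and 118 ± 81.4 in sh4 (SD, n = 3), with edgeR adjusted p = 0.000249 and 2.69e-05. The median log2 fold change of the list was 2.61 and 4.90, beside 0.02 and -0.01 over all genes. The copper carrier CP was at 0.146 ± 0.109, 4.64 ± 1.94 and 36.9 ± 4.06 CPM, with adjusted p = 6.35e-05 and 8.02e-07 in edgeR. SERPINF1, which is also made by mesenchyme, went from 38.4 ± 10 to 164 ± 26.5 and 972 ± 148 CPM. SERPINA5 went from 3.41 ± 0.339 to 17.9 ± 1.54 and 22.8 ± 11.1 CPM. The 1 gene called lower, in both contrasts, was the clotting factor F12, chosen here after its values were seen, at 3.55 ± 0.772, 1.59 ± 0.304 and 1.47 ± 0.499 CPM.

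Hepatocyte enzyme and transporter genes were tested for 29 of 37, and 20 rose in sh1 and 23 in sh4, with none called lower. TDO2, which opens the tryptophan ring, was at 0.432 ± 0.246 CPM in NC, 32.6 ± 5.89 in sh1 and 51.4 ± 5.99 in sh4, with edgeR adjusted p = 1.02e-06 and 2.63e-07. FAH of tyrosine breakdown went from 9.95 ± 1.21 to 31.2 ± 2.57 and 58.2 ± 10.9 CPM. UGT2B15 had 0 counts in each NC library and means of 1.97 and 3.33 CPM in sh1 and sh4. The median of the list was 2.77 in sh1 and 4.10 in sh4 on the log2 scale.

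Endoderm and liver transcription factor genes were tested for 22 of 24, and 7 rose and 3 fell in sh1, while 12 rose and 5 fell in sh4, or 9 and 6 with library size alone. HNF4G rose from 0.523 ± 0.163 CPM to 3.10 ± 0.547 and 6.14 ± 0.984, with edgeR adjusted p = 0.000108 and 4.73e-06. GATA6 rose from 20.6 ± 2.05 to 79.6 ± 14.5 and 62.9 ± 6.89 CPM, and TBX3 from 29.8 ± 7.89 to 134 ± 21.3 and 75.5 ± 9.18. The means of GATA6 and TBX3 were higher in sh1 than in sh4, whereas those of all 43 tested members were higher in sh4. MIXL1, a factor of the primitive streak, fell from 3.59 ± 0.952 to 0.310 ± 0.138 and 0.412 ± 0.151 CPM. The median log2 fold change of the list was -0.00 in sh1 and 1.23 in sh4.

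The NPC libraries were not used to choose the members, so the members listed there could be tested, with a limit. Of the 9860 tested genes of that table, 99.3% had an adjusted p under 0.05 for sh1 against NC and 88% for sh4 against NC. The table had in effect been chosen for the sh1 contrast, and a small adjusted p in either contrast is the rule in it. Its levels are relative to the listed genes, whose counts summed to 12733888 to 20185306 per library. In edgeR 3 of the 10 tested members rose and 2 fell with sh1 (6.31% and 12.1% of all genes tested). With sh4, 3 rose and 4 fell (6.55% and 11.6%). Without sh4 library 1 the sh4 count was 4 of 9, since FOXA3 was then not tested and APOC1 and SERPINA1 lost their calls at the fold threshold. Between the hairpins 2 members were called higher with sh1 (2.18%). The NPC pattern was mixed in direction, and APOB, SERPINA1 and VTN, which were higher in the sh4 organoid libraries, fell here with sh4. In the NPCs mesenchyme markers summed to 7155 to 7822 CPM in NC, 5544 to 6777 with sh1 and 6625 to 7532 with sh4, and choroid plexus markers to 151 to 160, 118 to 122 and 98.5 to 119. The part of these cells in the member levels was not tested.

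A2M was at 123, 132, 122, 133 and 143 CPM in NC, 749, 708, 729, 718 and 684 with sh1, and 941, 870, 553, 1043 and 1004 with sh4. Neither hairpin group overlapped NC for A2M, and its log2 fold changes were 2.46 ± 0.12 (SE, edgeR adjusted p = 1.03e-12) and 2.75 ± 0.12 (1.45e-13). APOC1 ran from 19.8 to 26.8 CPM in NC, 45.2 to 58.7 with sh1 and 38.8 to 50.8 with sh4, with both hairpin groups above every NC library. Its log2 fold changes were 1.17 ± 0.10 and 1.00 ± 0.10, with edgeR adjusted p = 1.94e-09 and 1.53e-08. The sh4 value sits at the threshold, and it missed the threshold with DESeq2 and RLE size factors (0.99 each), with library size alone (0.86), and without NC library 1 or 2 or sh4 library 1, 4 or 5 (0.95 to 1.00). FOXA3 had 3, 2, 1, 0 and 5 counts in NC, 9, 10, 14, 11 and 8 with sh1 and 14, 8, 9, 3 and 7 with sh4. FOXA3 rose by 2.18 ± 0.47 and 1.77 ± 0.50 on the log2 scale (edgeR adjusted p = 0.000285 and 0.00278), on few counts, and its sh4 group overlapped NC. No NC library had more than 5 counts of FOXA3, so the gene passed the filter through the hairpin libraries, where it is high. Without sh1 library 4 or sh4 library 1 it was not tested, and neither call could be made.

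APOB fell, with 31, 34, 25, 27 and 19 counts in NC, 4, 5, 7, 0 and 4 with sh1 and 1, 0, 1, 2 and 1 with sh4. The log2 fold changes of APOB were -2.74 ± 0.35 and -4.68 ± 0.46, with edgeR adjusted p = 6.7e-07 and 1.72e-08. No hairpin library had more than 7 counts of APOB, so the gene passed the filter through NC, where it is high. The hairpins differed by 1.94 ± 0.69 (edgeR adjusted p = 0.0416), a call that was lost when any 1 of 9 libraries was left out (NC library 4, sh1 libraries 1, 2, 3 and 5, and sh4 libraries 1, 2, 3 and 5). VTN had 31, 31, 20, 19 and 17 counts in NC, 14, 14, 8, 16 and 20 with sh1 and 0, 2, 3, 2 and 3 with sh4. VTN was called with sh4, at -3.55 ± 0.37 (edgeR adjusted p = 5.11e-08), and not with sh1, at -0.72 ± 0.25 (0.011). No sh4 library had more than 3 counts of VTN and 1 sh1 library had 8, so the gene passed the filter through NC, where it is high. The difference between hairpins for VTN was 2.84 ± 0.41 (edgeR adjusted p = 2.39e-05).

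SERPINA1 lay between 1.08 and 1.88 CPM in NC, 0.470 and 0.933 with sh1, and 0.495 and 1.09 with sh4. SERPINA1 fell by 1.09 ± 0.24 and 1.08 ± 0.24 on the log2 scale (edgeR adjusted p = 0.000365 for both). Both calls were lost without NC library 4, at -0.96 and -0.95, and the sh4 call also without sh4 library 1. The sh1 libraries lay below every NC library, and 1 sh4 library lay inside the NC range. ITIH4 lay between 2.56 and 5.48 CPM in NC, 1.68 and 2.82 with sh1, and 1.48 and 2.11 with sh4. It was called with sh4, at -1.12 ± 0.20 (edgeR adjusted p = 3.13e-05), a call lost without NC library 5 at -0.97. With sh1 ITIH4 was at -0.90 ± 0.19 (edgeR adjusted p = 0.000253), under the fold threshold, which it passed without NC library 1 (-1.02) or sh1 library 5 (-1.03) and with library size alone (-1.03).

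The other 3 tested members did not reach the fold threshold. APOE, which took the most member counts in NC, was at 246 to 341 CPM in NC, 204 to 263 with sh1 and 194 to 269 with sh4, with log2 fold changes of -0.31 ± 0.09 and -0.37 ± 0.09. TF was at 21.3 to 33.7 CPM in NC, 18.3 to 21.4 with sh1 and 18.2 to 21.4 with sh4 (-0.41 ± 0.10 and -0.48 ± 0.10). F10 was at 6.31 to 7.64, 4.01 to 5.54 and 4.86 to 7.09 CPM (-0.56 ± 0.13 and -0.24 ± 0.12). The groups of APOE and TF overlapped NC with both hairpins, and that of F10 with sh4 alone.

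The remaining 4 listed members were too low to test. HPX had 7 to 19 counts in the NC libraries, 1 to 4 with sh1 and 3 to 9 with sh4. FOXA1 had 4 to 8, 0 to 4 and 1 to 3 counts. ITIH1 had 1 to 10, 0 to 1 and 0 to 1 counts, and TM4SF4 had 0 to 7, 0 to 1 and 0 to 1. All 4 had higher group means in NC than with either hairpin. The 14 members together took 0.0532 ± 0.00342% of the listed counts in NC (SD, n = 5), 0.101 ± 0.00403% with sh1 and 0.115 ± 0.0206% with sh4. Without A2M these means were 0.0393, 0.0314 and 0.0296%, and the order of the groups was then the reverse.

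**Figure D5:**
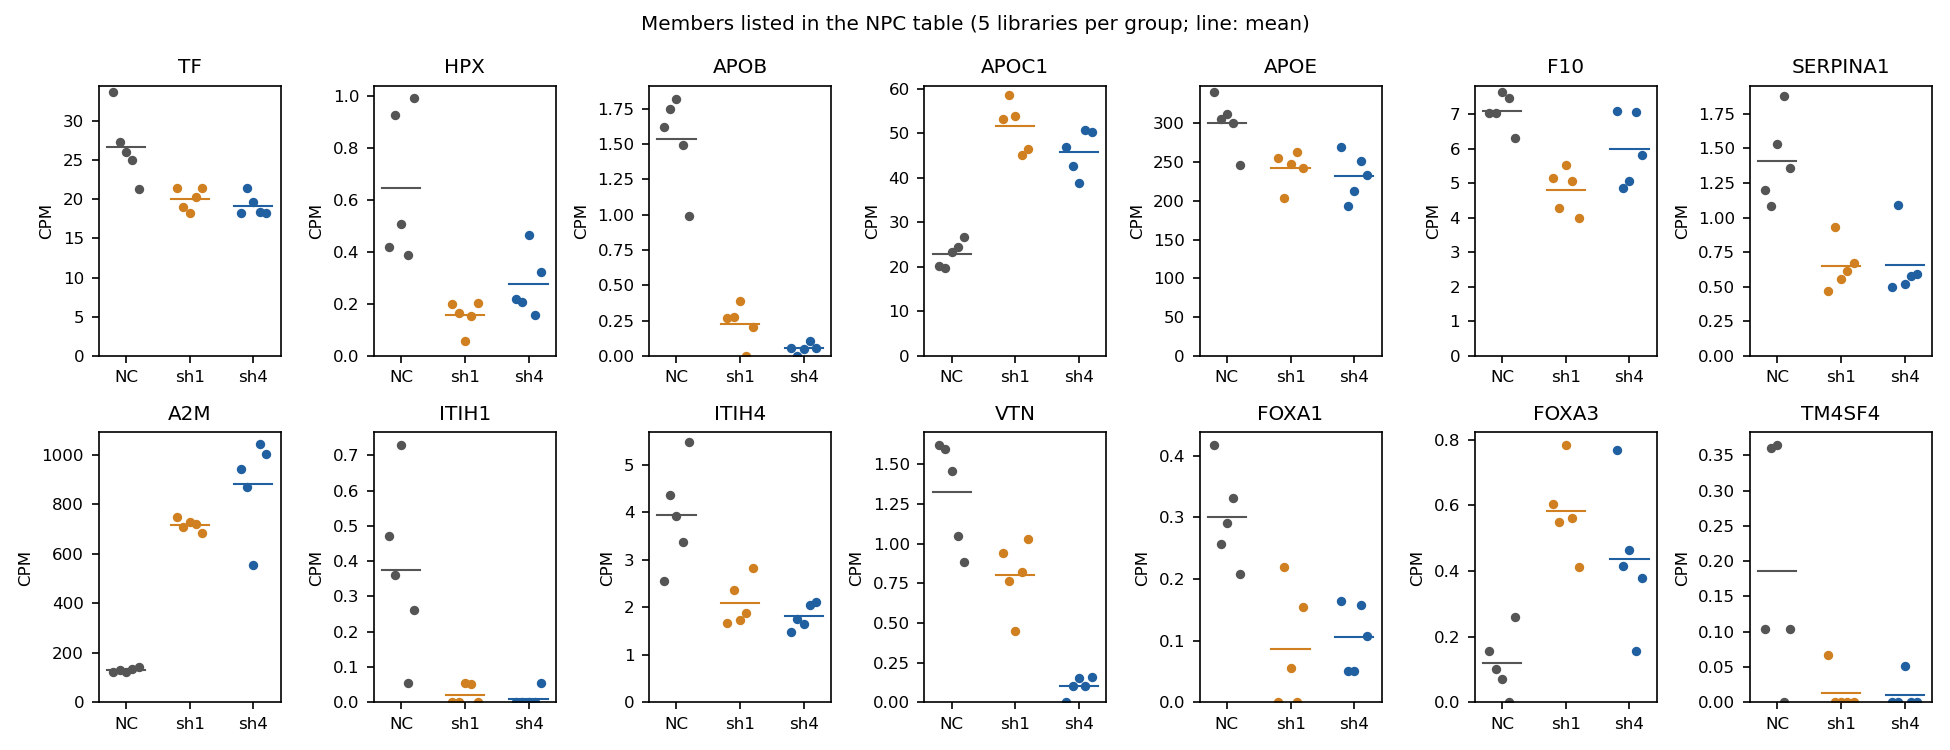
Level in CPM of the 14 members listed in the NPC table, with 5 libraries per group as points and the mean as a line, each on its own axis from 0. A2M, APOC1 and FOXA3 are higher with both hairpins, and APOB and SERPINA1 are lower; APOB is near 0 with sh4.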

How the data were processed

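Poly(A) RNA of 15 NPC and 9 organoid libraries had been sequenced. The authors deposited 1 table of expected counts per system, and 91% of values for organoids and 82.4% for NPCs were whole within 1e-06. STAR, featureCounts and GRCh38.p13 were used, per the submitters' processing notes, and their versions, the strand setting and the origin of the fractions are not given in the sources used here. Counts of overlapping or antisense genes therefore cannot be told apart. The NPC table lists part of the genes, so its totals are not library depth.

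After rounding, genes were kept by filterByExpr at a minimum count of 10 and libraries scaled by TMM (edgeR 4.0.16, R 4.3.3). One fit per system held its 3 groups, and the test was edgeR's quasi-likelihood F test, with Benjamini-Hochberg adjustment over all genes tested. A call is an adjusted p under 0.05 with a log2 fold change of at least 1 in size. CPM are counts-per-million of the TMM-scaled library total. The fit was tested on simulated data. Alternatives were DESeq2 1.42.0, library size alone, DESeq2-type size factors (RLE), no filter, a replicate block and leaving out each library. Positions and exon lengths come from GENCODE v29 and promoters from RefSeq.

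The members and the lists were chosen with earlier results of these data known. Values in every library are given for HNF4A, FOXA1 and FOXA3, for the 2 most abundant members of each role by mean organoid CPM, for the 6 with the largest mean organoid log2 fold change, for members at 0 in NC with at least 10 counts elsewhere, and for members listed in the NPC table. From each other list, up to 4 genes called the same way in both organoid contrasts were named, by smallest adjusted p. Of the genes this picked, 1 is not reported here. Protein sequences were not used here. All per-sample columns were mapped to samples.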

Additional observations from a re-analysis of the deposited data

Results flagged for a closer look

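In the NPC groups of 5 libraries, 4 of 45 groups checked held a library far from the other 4, where chance gives about 1 in 20. SERPINA1 had 1 sh4 library at 1.09 CPM, above the other sh4 libraries. ITIH1 had 1 sh4 library at 0.054 CPM, and TM4SF4 had 1 sh1 library at 0.0671 CPM and 1 sh4 library at 0.0517 CPM. These last 3 each rest on 1 count where the other libraries of the group had 0.

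Some members moved in opposite directions in the 2 systems in every library, against the mean of NC. This difference between systems was not tested, since the organoid contrasts chose the members. The organoid log2 fold change minus the NPC log2 fold change was 5.73 with sh1 and 6.97 with sh4 for TF, 6.28 and 10.62 for APOB, 3.13 and 4.07 for F10, 6.58 and 8.94 for SERPINA1, and 4.62 and 10.58 for VTN. For sh4 alone it was 1.65 for APOE and 1.87 for ITIH4. FOXA3 went the other way with sh1, at -2.94, being higher in the NPCs and lower in the organoids.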

How the results depend on the processing

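Every count of called members in the organoids stayed within 1.5 times its main value under all alternatives tried. Without 1 library in turn, 36 to 39 members were called in sh1, 40 to 42 in sh4 and 28 to 42 between sh1 and sh4. In the NPCs the ranges were 4 to 6 with sh1, 4 to 7 with sh4 and 1 to 2 between the hairpins; the 4 with sh4 arose without sh4 library 1, and the 1 between the hairpins wherever APOB lost its call. Without the filter on low counts, called NPC members went from 5 to 9 with sh1 and from 7 to 11 with sh4, since 14 instead of 10 were tested; the 4 added members were called lower in both contrasts, so that 3 were higher and 6 lower with sh1 and 3 higher and 8 lower with sh4 (7.03, 14.2, 6.91 and 13.2% of the 10221 genes). The other lists' total calls, both directions together, stayed within 1.5 times. By direction some did not: lipoprotein genes higher in sh1 went from 7 to 4 without NC library 1 or sh1 library 3, and the 1 gene called lower in several lists became 0, 2 or 3. Library size alone moved the median log2 fold change of all organoid genes in sh4 from -0.01 to -0.28.

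The members' share of organoid counts ranged, without 1 library, from 0.0684 to 0.0997% in NC, 0.845 to 1.34% in sh1 and 3.38 to 6.24% in sh4, and of listed NPC counts from 0.0522 to 0.0546%, 0.0997 to 0.102% and 0.110 to 0.123%. Without APOE, TF, A2M and VTN the share was 0.0353% in NC organoids, and 0.00411, 0.00584 and 0.00533% in NC, sh1 and sh4 NPCs. Without A2M, the NPC shares were 0.0393, 0.0314 and 0.0296%.

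With a replicate block, 36 members were called in sh1, 41 in sh4 and 33 between them in the organoids, and 5, 7 and 2 in the NPCs. The replicate numbers did not pair libraries: same-numbered libraries correlated at -0.216 to 0.0282 in the organoids and -0.13 to 0.48 in the NPCs, and 0 of 9 and 5 of 15 correlated best with their own number. Members with few counts in NC are limited by depth.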

Other observations

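Genes of gut, pancreas and lung endoderm, a list written with these data known, were tested for 21 of 27 in the organoids, and 14 rose and 1 fell in libraries labelled sh1, while 19 rose and 1 fell in those labelled sh4. Genes named from this list and those below were picked by smallest adjusted p unless said otherwise, so their p-values restate that choice. CDH17, an intestinal cadherin, was at 0.328 ± 0.277 CPM in NC (SD, n = 3), 18.4 ± 4.86 in sh1 and 88.9 ± 35.7 in sh4, with edgeR adjusted p = 2.37e-05 and 9.66e-07. CDH17 had 2, 12 and 4 counts in the NC libraries and passed the filter only with the sh1 and sh4 libraries, where it is high. The brush border enzyme SI had 4 counts over the NC libraries and means of 12.4 ± 2.49 and 51.5 ± 31.7 CPM in sh1 and sh4. ISX, an intestinal homeobox factor, had 1 count in each NC library and means of 3.18 ± 0.710 and 10.5 ± 4.48 CPM. NKX2-1, a factor of lung, thyroid and ventral forebrain, fell from 1.64 ± 0.356 CPM in NC to 0.0183 ± 0.0317 in sh1 and was at 0 counts in sh4.

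Yolk sac and basement membrane endoderm genes were all tested, 13 of 13, and 6 rose and 3 fell in sh1, while 10 rose and 1 fell in sh4. DAB2, an endocytic adaptor, rose from 14.7 ± 4.16 to 58.2 ± 5.73 and 177 ± 39.1 CPM, with edgeR adjusted p = 8.84e-05 and 1.19e-06. The laminin chain LAMB1 rose from 180 ± 14.8 to 460 ± 62.0 and 899 ± 113 CPM, and the collagen chain COL4A1 from 150 ± 38.5 to 309 ± 19.6 and 498 ± 43.4, both of which mesenchyme also makes. The sh1 log2 fold change of COL4A1, 1.04, lost its call without NC library 1 (0.92), NC library 2 (0.96) or sh1 library 2 (1.00). The fallers of this list, named after their values were seen, were CER1, LAMA1 and SOX7. CER1, a secreted inhibitor made by anterior endoderm, fell in both contrasts, from 57, 35 and 16 counts in NC to 0, 2 and 4 in sh1 and 3, 2 and 2 in sh4 (edgeR adjusted p = 0.00126 and 0.000932). No sh1 or sh4 library had more than 4 counts of CER1, so it passed the filter through NC, where it is high. Its p-values describe a gene picked for its fall and add no support. The laminin chain LAMA1 fell in sh1, from 153 to 64.8 CPM, and was at 83.8 in sh4, under the fold threshold at a log2 fold change of -0.87. SOX7, an endoderm and endothelial factor, fell in sh1, from 4.46 to 1.61 CPM, and was at 2.41 in sh4, under the threshold at -0.89. With library size alone 8 genes of this list rose and 3 fell in sh4, and without sh4 library 1 the number that fell was 2. FLRT3 rose from 39.0 ± 8.73 to 130 ± 6.07 and 137 ± 24.1 CPM. Lipoprotein receptor and lipid handling genes were tested for 24 of 25, and 7 rose and 2 fell in sh1, while 13 rose and 1 fell in sh4. The 7 that rose in sh1 became 4 without NC library 1 or without sh1 library 3. CD36, a fatty acid receptor, rose from 0.414 ± 0.217 to 6.99 ± 2.70 and 22.1 ± 8.78 CPM, and STRA6, the receptor of RBP4, from 22.5 ± 3.26 to 109 ± 11.4 and 107 ± 14.8. ANGPTL4, a lipoprotein lipase inhibitor, went from 4 ± 0.774 to 16.2 ± 3.56 and 11.3 ± 1.68 CPM. CIDEB, a lipid droplet protein of hepatocytes, went from 0.733 ± 0.38 to 3.23 ± 1.31 and 13.7 ± 10.3 CPM, with edgeR adjusted p = 0.0252 and 0.000296, and its sh1 call was lost without NC library 1, NC library 2 or sh1 library 3, at log2 fold changes of 1.93, 1.95 and 1.76. With 9, 10 and 20 counts in the NC libraries, CIDEB passed the filter only with the sh1 and sh4 libraries, where it is high.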
